A study of Homo sapiens with 74 samples.

Results

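Untethered Dam was compared in a mutant and a wild-type form: DamV133A, a point mutant with alanine in place of a valine, against DamWT. The comparison took the 4 libraries of the Dam-mutant table in which Dam was fused to nothing, 2 of DamV133A and 2 of DamWT, out of 74 samples in the series. It covered the 6749703 fragments of chromosomes 1 to 22 among the 7180359 DpnI fragments of that table, read singly, by length and summed to bins by their midpoint. The cells were HEK293T, an established line from human embryonic kidney. Per the labels, plasmids were transfected transiently with FuGene HD and the cells were given 1 mM Shield-1, a ligand that stabilises proteins with a destabilised FKBP12 domain, for 20 hours. That treatment text is the same for every sample and names Dam-LMNB1 with m6A-Tracer, so the sources used here leave unstated whether m6A-Tracer was present in these 4 libraries. No label ties replicates to separate cultures, so every p-value below measures the spread between these libraries, which may be technical. The amount of Dam protein in the cells was not measured in these files.

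Dam is a bacterial methylase that adds a methyl group to the adenine of GATC, a site that human cells leave unmethylated. In DamID it is fused to a protein of interest and marks the DNA that protein touches, and Dam without a partner serves as the control, since a freely diffusing methylase marks chromatin by its accessibility and by the time it has to act. DpnI cuts GATC only where the adenine is methylated, so a fragment is released and counted when both of its ends are methylated. V133A was described in Escherichia coli Dam as a variant with weaker methylation of unmethylated DNA.

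What is counted can be seen in fragments whose whole sequence lies just upstream of an annotated gene start. The 3 shown are those with the most counts among fragments inside RefSeq promoter windows (GRCh38.p14) that end before the gene start. They are written 5′ to 3′ on the plus strand, with the GATC sites in capitals.
FGF1: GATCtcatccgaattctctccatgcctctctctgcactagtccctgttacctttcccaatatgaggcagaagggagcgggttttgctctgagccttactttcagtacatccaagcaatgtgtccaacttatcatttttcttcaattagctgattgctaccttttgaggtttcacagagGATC
ZEB2: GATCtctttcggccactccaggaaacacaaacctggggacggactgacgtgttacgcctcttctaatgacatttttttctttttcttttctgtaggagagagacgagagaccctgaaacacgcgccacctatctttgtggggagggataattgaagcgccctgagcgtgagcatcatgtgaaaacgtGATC
KRT2: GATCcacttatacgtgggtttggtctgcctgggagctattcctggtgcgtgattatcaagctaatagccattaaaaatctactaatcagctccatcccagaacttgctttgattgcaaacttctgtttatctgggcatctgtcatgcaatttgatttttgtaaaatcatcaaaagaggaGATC
The fragment at FGF1, a fibroblast growth factor gene, spans chr5:142698138-142698319 and had 16 and 7 counts with DamV133A and 10 and 0 with DamWT. The fragment at ZEB2, a zinc finger repressor gene, spans chr2:144520120-144520310 and had 6 and 13 counts with DamV133A and 4 and 0 with DamWT. The fragment at KRT2, a keratin gene of the epidermis, spans chr12:52652274-52652456 and had 8 and 4 counts with DamV133A and 0 in both DamWT libraries. Of 1832 fragments that lie whole inside a promoter window, 66 (3.60%) had a count in any library and none had a count in all 4. Their median length was 69 bp, and that of the 66 was 177 bp. The number covered was 27 and 31 with DamV133A against 18 and 7 with DamWT, so promoter fragments were few in either form. These numbers were not brought to a common depth, and the DamV133A libraries had more counts, so they give no comparison of the forms.

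The libraries were shallow for single fragments. Autosomal counts were 7507660 and 4893781 with DamV133A, and 4157223 and 2949326 with DamWT. Fragments covered by at least 1 count were 737418 and 767971 with DamV133A, and 917592 and 919590 with DamWT. The mutant libraries were therefore the deeper ones and covered fewer fragments. Counts per covered fragment were 10.2 and 6.37 with DamV133A, and 4.53 and 3.21 with DamWT. Even counts made up 66.5 and 63.0% of covered fragments with DamV133A, and 59.2 and 56.0% with DamWT, and in each of the 4 libraries a count of 2 was more frequent than a count of 1 or 3. The sources used here do not state what 1 count stands for, a read or a pair. No 2 of the variant libraries held identical values.

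At a common depth DamV133A covered fewer fragments than DamWT. When each library was brought to 2949326 counts, the expected number of covered fragments was 612232 and 690026 with DamV133A, and 839084 and 919590 with DamWT. Both mutant libraries lay below both wild-type ones, at a log2 difference of -0.43 ± 0.15 (SD of the difference, n = 2 each), or 0.740 times. At 1000000 counts the numbers were 420377 and 457982 with DamV133A, and 517629 and 560896 with DamWT. For this and the other values given once per library, the exact two-sided permutation test over 2 against 2 libraries has 6 arrangements and cannot go below p = 0.333, which is the value obtained wherever the groups did not overlap. Within each group the library with more counts covered fewer fragments at the common depth, and the part that library complexity plays in the difference was not tested.

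**Figure D1:**
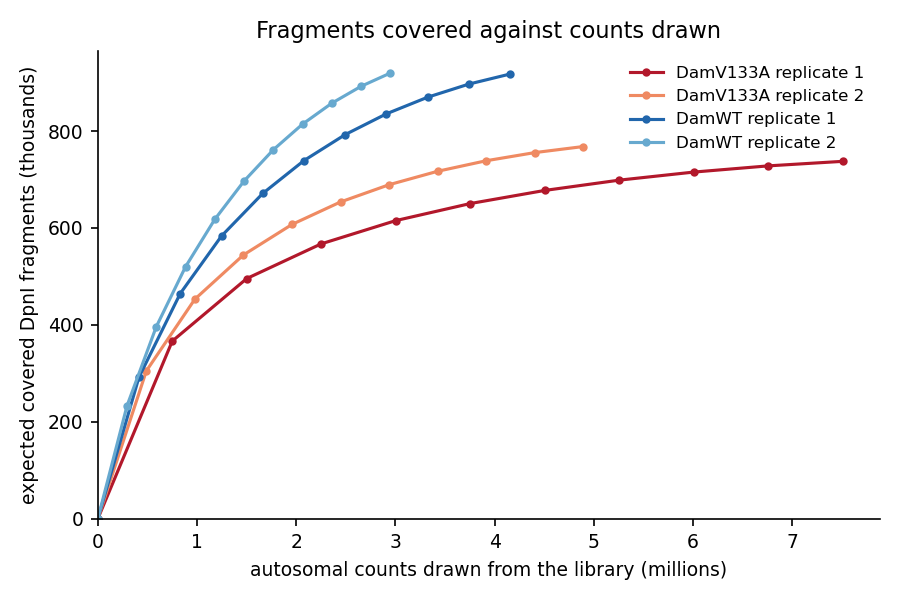
Expected number of covered DpnI fragments (vertical axis, in units of 1000) against autosomal counts drawn from each library (horizontal axis, in units of 1000000), for 2 DamV133A and 2 DamWT libraries. The DamV133A curves run below the DamWT curves and flatten earlier, ending at 737418 and 767971 fragments against 917592 and 919590 with DamWT.

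Replicates shared a minor part of their fragments. The DamV133A libraries had 232933 fragments in common, which is 31.6% of the first and 30.3% of the second. The DamWT libraries had 359435 in common, 39.2 and 39.1% of each. Between the forms, 265853 to 289973 fragments were shared, which is 36.1 to 37.8% of a DamV133A library and 29.0 to 31.5% of a DamWT library. A DamV133A library thus shared a larger part of its fragments with either DamWT library, which cover more fragments, than with its own replicate. Of all fragments, 4624189 (68.5%) had no count in any of the 4 libraries and 89046 (1.32%) had one in all 4. Fragments covered in both DamV133A libraries and in neither DamWT library numbered 63693, with a median length of 470 bp. The opposite pattern held for 132957 fragments, with a median of 567 bp. Covered fragments had a covered next fragment about as often in the 2 forms. Only relative to coverage, which was lower with the mutant, was that share higher with DamV133A. The next fragment along the chromosome was covered for 20.0 and 20.2% of covered fragments with DamV133A and for 20.2 and 19.5% with DamWT, which is 1.83 and 1.78 times the share of all fragments covered with DamV133A, against 1.49 and 1.43 times with DamWT.

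Both forms had most of their counts in fragments of middle length, and they differed most at both ends of the length range. Fragments below 100 bp are 21.2% of all fragments but held 0.269 and 0.436% of the counts with DamV133A, and 0.574 and 0.621% with DamWT. Fragments of 400 to 800 bp held 40.6 and 40.7% of the counts with DamV133A, and 41.6 and 41.2% with DamWT. The count-weighted median length was 628 bp in both DamV133A libraries, and 630 and 638 bp with DamWT, while the median of all fragments is 262 bp. From 1000 to 1200 bp the 4 libraries were alike to within a few percent. Counts per fragment relative to all fragments were 2.88 and 2.84 there with DamV133A and 2.82 and 2.89 with DamWT. At 400 to 500 bp they were further apart, at 1.33 and 1.28 with DamV133A and 1.47 and 1.51 with DamWT.

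Between 200 and 300 bp DamV133A had more counts than DamWT. At 200 to 250 bp the relative counts per fragment were 0.954 and 0.822 with DamV133A, and 0.622 and 0.486 with DamWT. Set against fragments of 500 to 1600 bp, the log2 value of fragments of 200 to 300 bp was -1.41 and -1.51 with DamV133A, and -1.82 and -2.08 with DamWT. Both mutant libraries were higher, by 0.49 ± 0.19 (SD of the difference, n = 2 each). At 2400 bp and above the order turned, with -2.30 and -2.10 for DamV133A and -1.43 and -0.86 for DamWT, a difference of -1.05 ± 0.43. Below 100 bp DamV133A was again lower, at -7.57 and -6.88 against -6.47 and -6.35 with DamWT, a difference of -0.82 ± 0.50. In each of these contrasts with 500 to 1600 bp the libraries stood in the order of their autosomal counts, within each form as well. Form and depth go together in these libraries, and the part of depth in these differences was not tested. The broad contrast of 200 to 800 bp over longer fragments stood at -0.88 and -0.86 with DamV133A and -0.90 and -0.97 with DamWT, and its difference of 0.07 ± 0.06 was close to the spread between replicates.

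**Figure D2:**
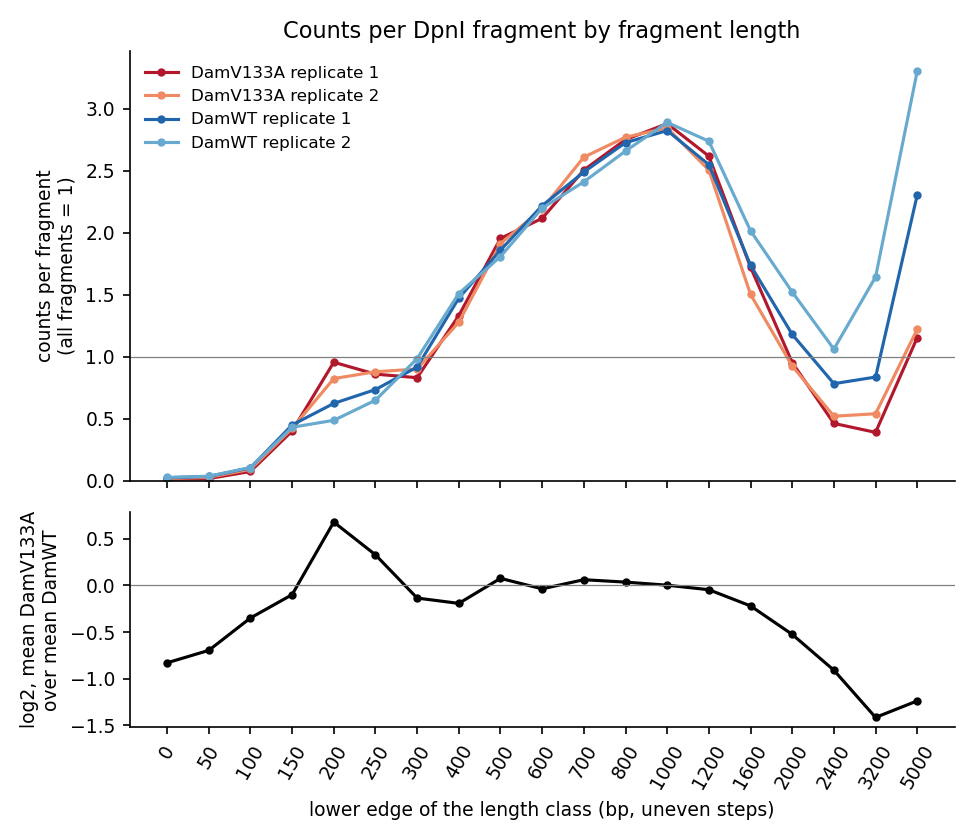
Upper panel: counts per DpnI fragment relative to all autosomal fragments (vertical axis) in 19 length classes (horizontal axis, lower edge in bp, uneven steps), 1 line per library. Lower panel: log2 of the DamV133A mean over the DamWT mean. The lines lie close together from 500 to 1600 bp. DamV133A is higher at 200 to 300 bp, and lower at 300 to 500 bp and at 2400 bp and above.

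Lamina-associated domains (LADs) are large, gene-poor and mostly silent regions that lie against the nuclear lamina, and the regions between them (iLADs) hold most active genes. Bins of 100 kb were put into these classes from 4 other, deeply sequenced libraries, as those with more (LAD) or fewer (iLAD) counts in DamV133A-LMNB1 than in DamV133A. The classes thus have untethered V133A in their denominator, though not the libraries compared here. Counts per DpnI fragment in LAD over iLAD bins had a log2 value of 0.37 and 0.36 with DamV133A, and 0.63 and 0.64 with DamWT. Over all fragment lengths together both forms had more counts per fragment in LADs. The excess was smaller with the mutant in both libraries, by -0.27 ± 0.01 on the log2 scale (SD of the difference, n = 2 each, exact permutation p = 0.333), or 0.828 times. LAD bins hold fewer GATC sites, so per bin the values were 0.08 and 0.07 with DamV133A and 0.34 and 0.35 with DamWT. Over the control LAD and iLAD bins marked in the authors' deposited table the mean values per bin were -0.04 with DamV133A and 0.40 with DamWT. The difference there was -0.44.

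The lower LAD value of the mutant was not carried by one class of fragment length. At 400 to 800 bp it was 0.21 and 0.21 with DamV133A and 0.49 and 0.49 with DamWT, and at 800 to 1600 bp 0.28 and 0.28 against 0.56 and 0.56. At 200 to 400 bp it was -0.09 and -0.08 with DamV133A and 0.20 and 0.23 with DamWT. In both classes below 200 bp both forms had fewer counts per fragment in LADs than in iLADs. In the 7 length classes the difference lay between -0.07, at 100 to 200 bp, and -0.55, at 3200 bp and above, and in none of them did the groups overlap. By number of fragments in the bin it was -0.34, -0.35, -0.30 and -0.21 in 4 of 5 groups of bins of about equal number, from fewer to more fragments. The group with the fewest fragments, 1 to 218 per bin, was the exception. There the values were 0.34 and 0.30 with DamV133A and 0.38 and 0.29 with DamWT, and the groups overlapped. That group held 509 iLAD bins, 23 of them lower with DamV133A by the bin test below, and 3792 LAD bins, 33 of them lower. Without the called bins its values were 0.48 and 0.52 with DamV133A and 0.85 and 0.85 with DamWT, a difference of -0.35. The called bins were chosen from these same libraries.

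All 22 autosomes had a lower LAD over iLAD value in both DamV133A libraries than in both DamWT libraries. The difference was largest on chromosome 22, at -0.98 ± 0.17, chromosome 19, at -0.74 ± 0.74, and chromosome 17, at -0.60 ± 0.03. These chromosomes had 4, 3 and 39 LAD bins, so the values of the first 2 rest on very few bins. The difference was smallest on chromosome 13, at -0.21 ± 0.03, chromosome 1, at -0.21 ± 0.01, and chromosome 7, at -0.22 ± 0.05 (SD of the difference, n = 2 each). Chromosome 13 had the largest excess in LADs in either form, 0.94 and 0.97 with DamV133A and 1.16 and 1.17 with DamWT.

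**Figure D3:**
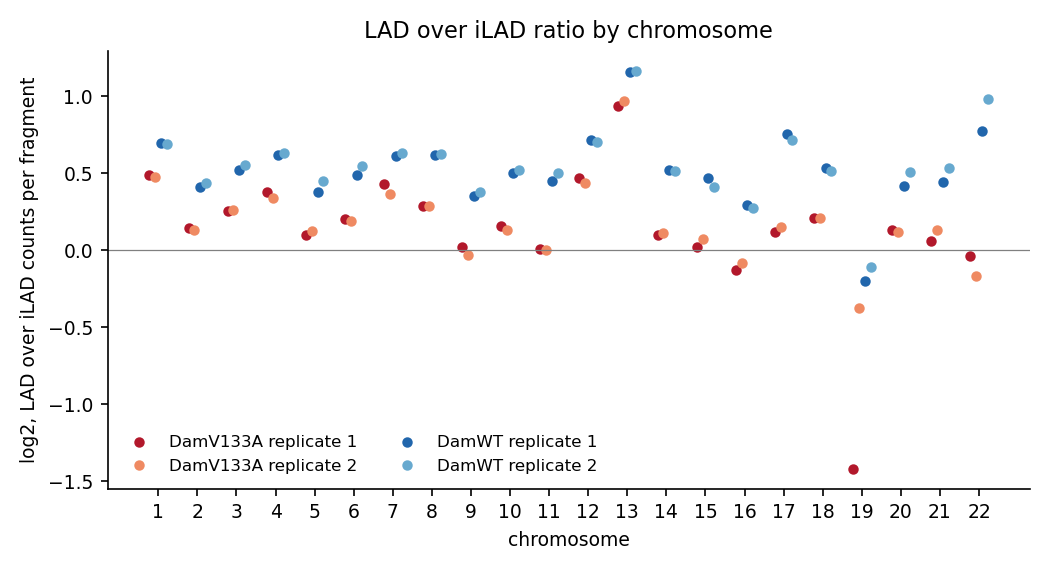
Log2 ratio of counts per DpnI fragment in LAD bins over iLAD bins (vertical axis) on each autosome (horizontal axis), 1 point per library. The DamV133A points lie below the DamWT points on all 22 chromosomes, and chromosomes 19 and 22 rest on 3 and 4 LAD bins.

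Whole chromosomes differed little. Counts per fragment of a chromosome over all autosomes differed between the forms by at most 0.19 on the log2 scale. DamV133A was highest relative to DamWT on chromosome 17, at -0.40 and -0.39 against -0.48 and -0.45, on chromosome 22, by 0.07, and on chromosome 15, by 0.06. It was lowest on chromosome 16, at -0.57 and -0.51 against -0.37 and -0.33 with DamWT, a difference of -0.19 ± 0.05. On chromosome 21 the difference was -0.13 ± 0.01 and on chromosome 19 -0.11 ± 0.05. Counted as covered fragments, the difference was 0.02 on chromosome 16, where the groups then overlapped. A few bins of chromosome 16, lower with DamV133A by the bin test below, held many of its counts. At chr16:46300001-46500000 there were 5144 and 5844 counts with DamV133A and 10387 and 8772 with DamWT. At chr16:34500001-34600000 there were 2854 and 3241 against 5843 and 4933. The part of these bins in the chromosome 16 difference was not tested.

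In 27125 bins of 100 kb the forms were compared by edgeR's quasi-likelihood test at a Benjamini-Hochberg adjusted p under 0.05. DamV133A was higher in 56 bins (0.206% of those tested) and lower in 162 (0.597%), together 218 bins (0.804%), and 3891 bins had an unadjusted p under 0.05. These calls depended on the fit: 0 bins were called with the 4 LMNB1 libraries of the same table also fitted, 6 with covered fragments in place of counts, and 70 or 52 without DamWT replicate 1 or 2. Called bins had absolute log2 fold changes of at least 0.88 when higher and 0.91 when lower. Of the bins called higher, 6 (10.7%) held no part of a protein-coding gene, and of those called lower 131 (80.9%), beside 9456 (34.9%) of all tested bins. Counts per fragment in the bins called lower were 1.45 times the autosomal mean with DamV133A and 4.03 times with DamWT. In the 2 deeply sequenced DamV133A libraries the same bins stood at 1.21 and 1.14 times. The bins called higher stood at 2.03 times with DamV133A and 0.917 times with DamWT, and at 1.52 and 1.48 times in the deep DamV133A libraries. The deep libraries were not used to choose these bins, but they include no DamWT and so give no difference between the forms.

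The bins with the strongest evidence for less signal in the mutant lay in the centromeric part of chromosome 1, a stretch of alpha satellite repeats without protein-coding genes between LINC02798 and H3-7. The bin chr1:123500001-123600000 had 162 and 139 counts with DamV133A, and 351 and 444 with DamWT, although the mutant libraries were deeper. Its log2 fold change was -2.23 ± 0.27 (SE, edgeR adjusted p = 5.2e-05, and 0.253 with all 8 libraries fitted). The other 4 of the 5 smallest p-values began at 123300001, 124100001, 124700001 and 123600001 on the same chromosome and had log2 fold changes of -1.91, -2.27, -1.75 and -1.78. In all 5 bins both DamV133A libraries had fewer counts than either DamWT library, and 4 of the 5 bins are of the iLAD class described above. In the first of them 39 and 42 of 132 fragments were covered with DamV133A and 72 and 75 with DamWT, with a log2 fold change of -0.56 in covered fragments.

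Called bins next to each other formed runs, and the longest, picked after their values were seen, lay at centromeres. On chromosome 1 there were 23 bins in a row, chr1:122500001-124800000, with 4889 and 4425 counts with DamV133A and 8692 and 8178 with DamWT. On chromosome 13 there were 12, chr13:16300001-17500000, before TUBA3C, an alpha tubulin gene, with 4031 and 3514 counts with DamV133A and 6295 and 5998 with DamWT. There the number of covered fragments was 580 and 582 with DamV133A and 706 and 709 with DamWT, and relative to the coverage of each library its median log2 fold change was 0.01. At chr16:46300001-46500000, in the heterochromatin of the long arm before SHCBP1, the counts were 5144 and 5844 with DamV133A and 10387 and 8772 with DamWT, on only 47 and 55 covered fragments with the mutant and 72 and 69 with the wild type, a median log2 fold change in covered fragments of -0.12. Reads from near-identical repeats cannot be placed with certainty, and the sources used here do not state how the authors' counting treated them.

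The bins with the strongest evidence for more signal in the mutant lay in chromosome arms. At chr8:105500001-105600000, with the midpoint of ZFPM2, which encodes a cofactor of GATA factors, counts were 640 and 375 with DamV133A, and 139 and 67 with DamWT. The log2 fold change was 1.52 ± 0.26 (SE, edgeR adjusted p = 0.00115, and 0.515 with all 8 libraries fitted). At chr10:21900001-22000000, inside DNAJC1, which encodes a chaperone partner of the endoplasmic reticulum, counts were 525 and 352 with DamV133A, and 107 and 82 with DamWT (log2 fold change 1.41). At chr1:1300001-1400000, a bin of 9 genes with ACAP3, PUSL1, the Integrator subunit gene INTS11 and CPTP, counts were 454 and 290 with DamV133A, and 103 and 32 with DamWT (log2 fold change 1.72). The other 2 were chr19:13000001-13100000, with the transcription factor gene NFIX, at 319 and 143 counts with DamV133A and 34 and 28 with DamWT (2.03), and chr1:61100001-61200000, inside NFIA, which encodes a transcription factor of the same family as NFIX, at 1019 and 641 against 222 and 202 (1.13). In these 5 bins the number of covered fragments differed less than the counts, with log2 fold changes in covered fragments of 0.57 to 1.07. Of the 55 higher bins with a value in covered fragments, 55 had the same sign there, and of 158 lower bins 141 had. Covered fragments come from the same counts that chose these bins, so the shared sign is no separate evidence for the calls.

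The shift between LADs and iLADs ran through most bins and not through the called ones alone. Of 9851 tested LAD bins, 64.7% had a log2 fold change below 0, with a median of -0.15, and 7 were called higher and 80 lower. Of 9862 iLAD bins 34.2% were below 0, with a median of 0.15, and 35 were called higher and 25 lower. Bins in neither class numbered 7319, with a median of 0.02, 13 called higher and 55 lower. Over all tested bins the median was 0.01, with 0.206% called higher and 0.597% called lower. For their number, bins in neither class were called lower nearly as often as LAD bins, so lower calls were not particular to LADs.

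**Figure D4:**
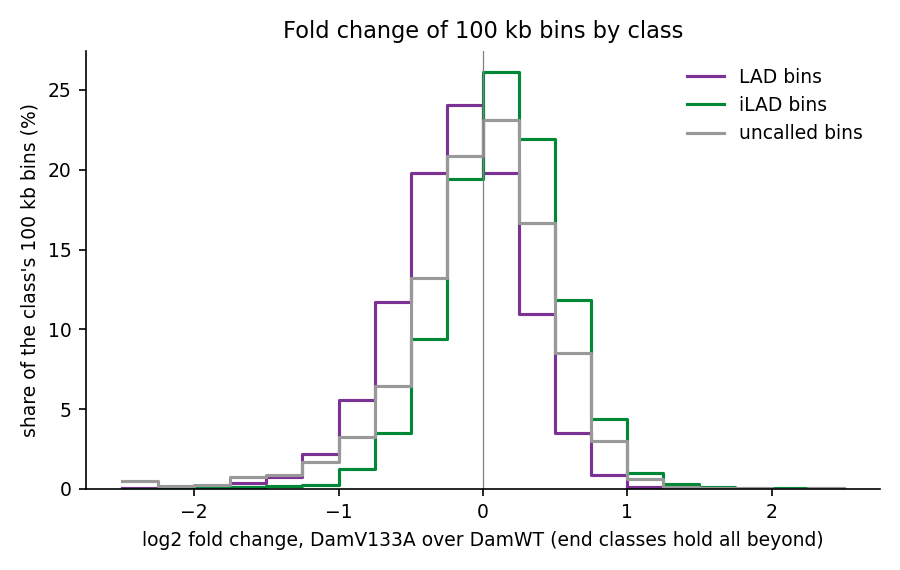
Share of 100 kb bins (vertical axis, %) by log2 fold change of DamV133A over DamWT (horizontal axis, steps of 0.25) for LAD, iLAD and uncalled bins. The LAD curve lies to the left, with a median of -0.15, and the iLAD curve to the right, with a median of 0.15, with wide overlap.

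Summed to 1 Mb, 690 of 2778 bins were called (24.8%), 275 higher (9.90%) and 415 lower (14.9%), by edgeR's quasi-likelihood test. With covered fragments in place of counts 681 of 2770 were called (24.6%), 266 higher (9.60%) and 415 lower (15.0%), so at this scale the difference was as frequent in which fragments were covered as in their counts. At 100 kb covered fragments gave 6 called bins of 26757 (0.0224%), all lower (0.0224%). The 1 Mb bins named here were chosen after their values were seen. The smallest p-values were those of lower bins on chromosome 1, such as chr1:123000001-124000000 with 1599 and 1360 counts with DamV133A and 3109 and 3036 with DamWT (log2 fold change -1.87 ± 0.09 SE, edgeR adjusted p = 3.07e-43). For that bin the edgeR adjusted p was 0.000639 with all 8 libraries fitted. Its log2 fold change in covered fragments was -0.42. Among higher ones, chr9:125000001-126000000, with HSPA5, the chaperone gene of the endoplasmic reticulum, had 3718 and 2539 counts with DamV133A and 1389 and 998 with DamWT (log2 fold change 0.58 ± 0.09, edgeR adjusted p = 7.61e-08). Its covered fragments, 346 and 354 with DamV133A and 405 and 384 with DamWT, gave a log2 fold change of 0.11 that did not pass. The second, chr10:121000001-122000000, holds FGFR2, a fibroblast growth factor receptor gene, with a log2 fold change of 0.53 and an edgeR adjusted p of 0.127 with all 8 libraries fitted.

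Away from centromeres, runs of lower 1 Mb bins lay both in stretches with few genes and in gene clusters. The run chr19:52000001-55000000 held 89 genes, ZNF614 and ZNF432 among them, at a median log2 fold change of -0.49, and chr11:58000001-60000000 held 42, with the olfactory receptor genes OR9Q1 and OR6Q1, at -0.37. On chromosome 11, chr11:37000001-43000000, with the midpoint of 1 gene, LRRC4C, for a synaptic adhesion protein, had 835 and 916 covered fragments with DamV133A and 1482 and 1631 with DamWT, with a median log2 fold change of -0.58 both in counts and in covered fragments. On chromosome 14, chr14:82000001-87000000, with the adhesion gene FLRT2, had 665 and 671 covered fragments with DamV133A and 1322 and 1289 with DamWT. On chromosome 2, chr2:79000001-84000000, with the REG genes of the pancreas and gut, had 771 and 788 with DamV133A and 1306 and 1416 with DamWT. The longest run of higher bins, chr16:84000001-89000000 with 55 genes, had 8973 and 5205 counts with DamV133A and 3419 and 2592 with DamWT, and a median log2 fold change of 0.38. These runs were chosen after their values were seen.

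No single DpnI fragment passed. Of 84039 fragments that passed the filter on low counts (1.25% of autosomal fragments), 0 were called by edgeR's quasi-likelihood test (0% higher, 0% lower), 8041 had an unadjusted p under 0.05, and the smallest adjusted p was 0.377. The DESeq2 test called 2668, 170 higher and 2498 lower. The median log2 fold change of the tested fragments was -0.19 with TMM scaling and 0.07 with library totals, so directions of single fragments are relative to a median that moves with the scaling. Fragments passing the filter had a median length of 749 bp, and 48.5% of them had a count in all 4 libraries. The smallest p-value was that of a 595 bp fragment, chr7:116474363-116474957, between TES and the caveolin gene CAV2, with 0 counts in both DamV133A libraries and 68 and 45 with DamWT. A 620 bp fragment in PRKCQ, a protein kinase C gene, had 2 and 2 counts with DamV133A and 45 and 34 with DamWT, and a 569 bp fragment in PTPRK, a receptor phosphatase gene, had 0 and 0 against 52 and 40. In the other direction, a 207 bp fragment between ARID3A and WDR18 had 206 and 129 counts with DamV133A and 13 and 8 with DamWT. A 678 bp fragment in IRF2BP2, which encodes a transcriptional corepressor, had 76 and 57 counts with DamV133A and 2 and 2 with DamWT. None of these differences passed the threshold. Of the 84039 tested fragments, 3427 had no count in either DamV133A library and 2577 none in either DamWT library. Such a fragment passes the filter only through its counts with the other form. These numbers therefore do not show how frequent all-or-none patterns are.

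Genes that were active in untreated HEK293T cells held more signal with DamV133A. Genes were classed by their RNA level in 2 libraries of untreated cells, given as CPM, counts scaled to a library total of 1000000, and no DamID library entered that classing. Counts per DpnI fragment within gene bodies at 10 CPM or more over those under 0.1 CPM had a log2 value of 0.59 and 0.60 with DamV133A, and 0.30 and 0.31 with DamWT. Both mutant libraries were higher, by 0.29 ± 0.005 (SD of the difference, n = 2 each, exact permutation p = 0.333), or 1.22 times. Set against all autosomal fragments, genes of 100 CPM and above stood at 0.20 and 0.22 with DamV133A and -0.07 and -0.09 with DamWT. Genes of 10 to 100 CPM stood at 0.20 and 0.19 with DamV133A and 0.00 and -0.02 with DamWT. Silent genes, under 0.1 CPM, stood at -0.39 and -0.40 with DamV133A and -0.31 and -0.33 with DamWT. Per fragment, the DamWT values hardly differed among the classes above 0.1 CPM and lay between -0.10 and 0.00. With DamV133A they ran from -0.10 to 0.22. Per kb of gene body, the DamWT means of these classes rose with RNA level, at -0.04, 0.02, 0.12 and 0.12. The DamV133A means per kb were -0.03, 0.10, 0.33 and 0.41. The groups overlapped only at 0.1 to 1 CPM.

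Gene starts were depleted with both forms, and much less with the mutant. In the first kb downstream of the start of genes at 10 CPM or more, the log2 counts per fragment relative to all autosomal fragments were -0.998 and -1.07 with DamV133A, and -2.08 and -2.02 with DamWT. In the kb upstream they were -0.69 and -0.74 with DamV133A, and -1.44 and -1.52 with DamWT. From 1 to 2 kb downstream DamV133A stood above the autosomal mean, at 0.18 and 0.13, and DamWT below it, at -0.49 and -0.59. Upstream the forms came closer with distance, and from 9 to 10 kb upstream the values were -0.31 and -0.25 with DamV133A and -0.38 and -0.36 with DamWT. Fragments within 1 kb over those 5 to 10 kb away stood at -0.68 and -0.76 with DamV133A and -1.38 and -1.40 with DamWT, a difference of 0.67 ± 0.06, and of 0.70 ± 0.07 over fragments of 200 to 1600 bp alone (SD of the difference, n = 2 each). At the starts of the 2406 silent genes the same ratio was -0.16 and -0.28 with DamV133A and -0.58 and -0.63 with DamWT, a difference of 0.38 ± 0.10. Beyond 2 kb upstream of silent genes the 2 forms differed by at most 0.20 in either direction.

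**Figure D5:**
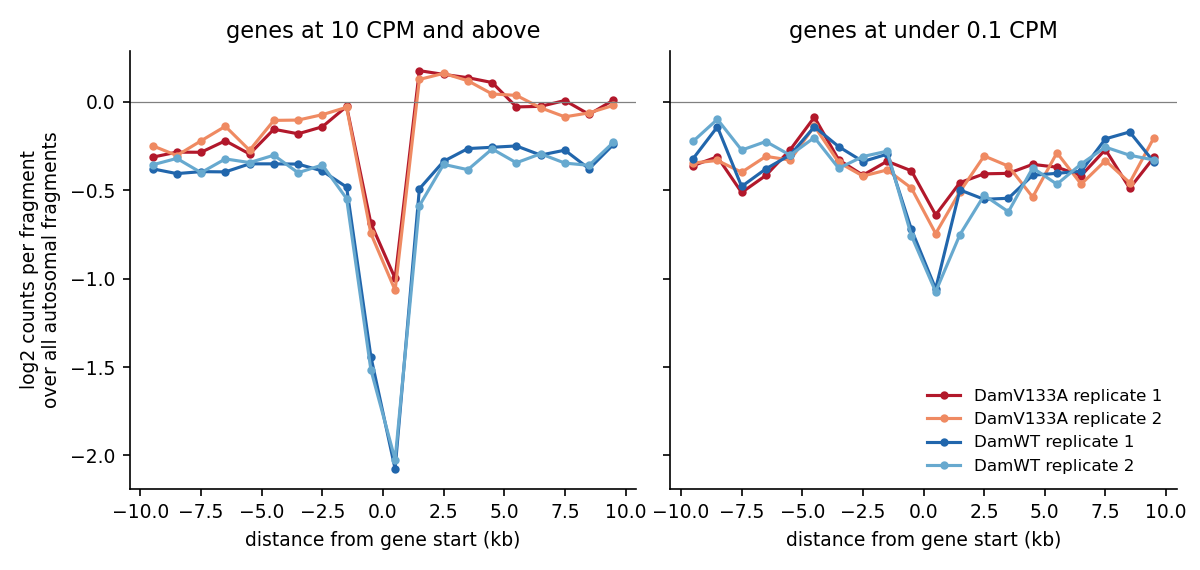
Log2 counts per DpnI fragment over all autosomal fragments (vertical axis) by distance from the gene start (horizontal axis, kb, positive downstream), 1 line per library, for 7690 genes at 10 CPM and above (left) and 2406 genes under 0.1 CPM (right). Around active gene starts the dip reaches -1.07 with DamV133A and -2.08 with DamWT.

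Promoters of active genes are rich in G and C, and counts near gene starts dropped with base composition in both forms. Genes were split into 5 groups of about equal number by the share of G and C in their 300-base promoter window. In the lowest group, 22.3 to 51.3%, active genes within 1 kb of the start stood at -0.05 and -0.10 with DamV133A and -0.88 and -0.87 with DamWT. In the highest group, 72.0 to 94.0%, they stood at -1.72 and -1.95 with DamV133A and -2.60 and -2.67 with DamWT. Between these groups the level of active genes thus varied more than between the forms, but within each of the 5 both DamV133A libraries lay above both DamWT libraries, by 0.80, 0.88, 0.93, 0.83 and 0.80. For silent genes the difference was 0.27, 0.49, 0.59, 0.42 and 0.14, and the groups overlapped in the highest group, with 111 genes and as few as 34 counts in a library. Base composition of the other fragments was not analysed here.

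By number of genes, bins without a protein-coding gene midpoint stood at 0.07 and 0.07 relative to all autosomal fragments with DamV133A and 0.14 and 0.14 with DamWT. Bins with 1 gene stood at 0.05 and 0.05 with DamV133A and -0.05 and -0.06 with DamWT, and bins with 5 genes or more at -0.75 and -0.75 against -0.87 and -0.87. The median log2 fold change was -0.07 in the 16070 bins without a gene and 0.11, 0.12 and 0.10 in bins with 1, with 2 to 4 and with 5 or more.

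Gene families are given by the 100 kb bins that hold their midpoints. The 391 olfactory receptor genes, odour receptors that are silent outside the nose, had 389 members in 168 tested bins, 95 of them LAD bins. Relative counts per fragment in those bins were -0.34 and -0.29 with DamV133A, and -0.05 and 0.03 with DamWT. Of the 168 bins, 4 were called lower and 0 higher, beside 0.597 and 0.206% of all tested bins, and the median log2 fold change was -0.27 against 0.01 over all tested bins. The first members by name, OR10A2, OR10A3 and OR10A4, had 0.16, 0.21 and 0.16 and did not pass. The 94 keratin-associated protein genes, of hair, lay in 18 bins, 4 of them LAD bins, with a median of -0.20 and no call. The 10 type 2 UDP-glucuronosyltransferase genes, for enzymes that conjugate drugs and steroids, lay in 8 bins, all LAD. The median log2 fold change of those bins was -0.09, and UGT2A1 had -0.87 ± 0.25 (SE, edgeR adjusted p = 0.0841). GABA-A receptor subunit genes, for the inhibitory chloride channels of neurons, had a median of -0.20 over 15 bins, and clustered protocadherins, adhesion molecules of neurons, -0.10 over 7 bins, with no call in either. In both families the DamV133A and DamWT libraries overlapped.

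The 73 histone genes of the list, most of them replication-dependent genes transcribed in S phase, lay in 14 bins, 12 of them iLAD bins. Their median log2 fold change was 0.56, with relative counts of 0.24 and 0.15 with DamV133A against -0.23 and -0.24 with DamWT. None of these bins passed, and the bins of the linker histone genes H1-1 and H1-10 had 0.19 and 0.67. H1-10 is not replication-dependent. The 39 HOX genes, which pattern the body axis, lay in 9 bins, 6 of them iLAD bins. Of the 9 bins 1 was called higher, beside 0.206% of all tested bins. That bin holds 10 HOXA genes, among them HOXA10 and HOXA11, with a log2 fold change of 1.45 ± 0.32 (SE, edgeR adjusted p = 0.0199). Cytosolic ribosomal protein genes had a median of 0.17 over 81 bins and proteasome subunit genes 0.16 over 37 bins, with no call. Of these bins 66 and 34 are iLAD bins, and the median of all tested iLAD bins was 0.15, so both families were near that level. The 498 zinc finger genes, many of them for DNA-binding repressors, had a median of -0.10 over 345 bins of which 207 are iLAD bins and 17 LAD bins, and again no call. PSG and CEACAM genes, of placenta and epithelia, lay in 15 iLAD bins with a median of -0.19, and there the libraries of the 2 forms overlapped.

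Across bins the libraries resembled those of their own form most. Over 2778 bins of 1 Mb, which all 4 libraries share, Pearson's r of log2 counts per fragment was 0.96 between the DamV133A libraries, 0.98 between the DamWT libraries and 0.86 to 0.91 between the forms. Over 27125 bins of 100 kb it was 0.79 between the DamV133A libraries, 0.86 between the DamWT libraries and 0.71 to 0.76 between the forms. With the 2 deep DamV133A libraries the DamV133A libraries of this comparison had an r of 0.73 to 0.76 and the DamWT libraries 0.62 to 0.65. These coefficients describe bins of shared GATC content within libraries of unequal depth, and bins are not replicates.

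The calls also depended on which libraries of each form were in the fit. Leaving out DamV133A replicate 1 gave 1066 called 100 kb bins and leaving out replicate 2 gave 2119, in place of 218. At 1 Mb the counts were 275 and 191 without DamWT replicate 1 or 2, and 568 and 714 without DamV133A replicate 1 or 2, in place of 690. With the 4 LMNB1 libraries in the fit, which then share the estimate of the spread, 0 bins of 100 kb were called by edgeR, 1358 having an unadjusted p under 0.05. At 1 Mb that fit called 141 bins, 7 higher and 134 lower.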

How the data were processed

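The submitters' processing notes list build hg38 and, with no role, bedtools 2.28, SAMtools 1.9, limma, Salmon, DESeq2, Trimmomatic 0.39 and BWA 0.7.15-r1140. For the variant libraries the authors deposited unnormalised counts of each DpnI fragment, raw coverage counts per 100 kb bin for 4 deep bulk libraries, with the authors' 0 or 1 marks of control bins, and estimated counts per gene for RNA. The 54 single-cell columns were not used.

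Fragments of chromosomes 1 to 22 were summed to 100 kb and 1 Mb bins by midpoint. Counts were tested with edgeR 4.0.16 (R 4.3.3, filterByExpr, TMM, glmQLFit, glmQLFTest, Benjamini-Hochberg, 0.05), over 2 against 2 libraries with no covariate. LAD and iLAD bins came from the same test of the deep libraries. Values per library were compared with an exact permutation test. Covered fragments at a common depth are exact expectations. Of 19126 autosomal protein-coding genes in the RefSeq table (GRCh38.p14), 17329 (90.6%) matched an RNA level by identifier or symbol, as CPM of library totals without rounding, and 15101 had a promoter entry. All 7804 GATC sites in promoter windows lay at fragment boundaries. Gene positions outside promoter entries were not checked against hg38, and chromosome 8 gene starts were not used here.

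Named bins and fragments are those with the 5 smallest p-values per direction, chromosomes those with the 3 highest and lowest values, family members among the first 3 by name (some are not reported here), genes of a bin the first 4 by position. Members and lists were chosen with earlier results of these data known. Alternatives were other scalings, no filter, DESeq2 1.42.0, a replicate block, covered fragments, other bins and leaving out each library. The rest was computed in Python 3.11.15 (SciPy 1.17.1, NumPy 2.4.6, pandas 2.3.3; figures with matplotlib 3.10.9).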

Additional observations from a re-analysis of the deposited data

How the results depend on the processing

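Of 218 called 100 kb bins, scaling, the filter and the DESeq2 test left 216 to 281. Other settings moved the count by more than 1.5 times: 0 with all 8 variant libraries in the fit, 6 with covered fragments, 690 with 1 Mb bins, and, both added after seeing the data, 681 with covered fragments in 1 Mb bins and 141 with all 8 libraries in 1 Mb bins. Leaving out 1 library gave 52 to 2119. With the replicate block 539 bins and 130 fragments were called, but the labels do not pair the libraries by number and the correlation of same-numbered deviations was 0.02. For fragments, against 0, the DESeq2 test called 2668 and leaving out 1 library 23 to 5953, with 0 under library totals and under a minimum of 20 counts in 2 libraries. The LAD over iLAD difference of -0.27 was -0.29 with covered fragments, -0.44 with the authors' control bins and -0.30 with fragments of 200 to 800 bp. Without single libraries it was -0.28 to -0.27. The mean per bin with DamV133A itself, 0.08 in the main run, was -0.23, -0.04 and -0.08 in those alternatives, in that order, so its sign changed. The active over silent difference of 0.29 was 0.22 with covered fragments and 0.24 with silent genes under 1 CPM. The short fragment difference lay at 0.03 to 0.10 and the common depth one at -0.52 to -0.30. The LAD, active gene, short fragment and common depth differences kept their direction in each alternative run, while the median fold change of tested fragments was -0.19 with TMM and 0.07 with library totals, and chromosomes 16 and 19, at -0.19 and -0.11 in counts, were at 0.02 and 0.02 in covered fragments. The cause of these shifts was not tested.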
